A study of Mus musculus with 19 samples.

Results

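Replication licensing loads the ring-shaped helicase onto DNA before S phase, and the mRNAs of 10 genes of this process were followed in mouse oocytes and 2cell embryos. The 10 genes were picked by name from the 25891 genes of the expression table. They are *Mcm2*, *Mcm3*, *Mcm4*, *Mcm5*, *Mcm6* and *Mcm7*, which code for the subunits of the helicase ring, the loading factors *Cdc6* and *Cdt1*, the CDT1 inhibitor *Gmnn* (geminin), and *Mcm10*, which acts after loading when the helicase is switched on. All 10 were listed in the table and passed the filter on low values in every comparison.

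In the G1 phase the origin recognition complex and CDC6 bind origins, and CDT1 brings the MCM2-7 ring, which is loaded as a head-to-head pair. Geminin binds CDT1 and stops a further round of loading until it is destroyed at the end of mitosis. The oocyte stores these mRNAs during growth, and the embryo draws on them for its first S phases until its own genes are switched on. CPEB proteins bind U-rich motifs of 3′UTRs, of which the cytoplasmic polyadenylation element (CPE) is the best known, and act on the poly(A) tail, translation and stability of stored mRNAs. CPEB3 is known to prefer other U-rich motifs and to bind the CPE less well than CPEB1.

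RNA was sequenced in 19 libraries from BL6 mice, with 5 Het MII, 5 KO MII, 5 Het 2cell and 4 KO 2cell libraries. The MII oocytes, arrested in the second meiotic metaphase, came from females of 6 to 10 weeks that received 5 IU of PMSG and, 48 h later, 5 IU of hCG. For the embryos, females of the same age that received the same hormones were mated. Zygotes were taken at 17 h after hCG and cultured in M16 medium, and 2cell embryos were collected at 37 h after hCG. KO denotes *CPEB3* LoxP/LoxP; ZP3-Cre+/- females (CPEB3-/-), in which the Zp3 promoter drives Cre in growing oocytes only, so that protein made earlier can persist. Het denotes CPEB3+/- females, and no wild-type libraries were compared here. The methods list *CPEB3* LoxP/-; ZP3-Cre+/- females among their controls, so the Het libraries may carry the Cre transgene too. Genotype is that of the mother, and the study mated such females with wild-type males. Each library pools several cells, and the labels do not say that libraries came from separate females, so the p-values measure the spread between these libraries, which may be technical. In such pools, fewer cells with a transcript and less of it per cell cannot be told apart.

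*Cpeb3* RNA had higher means in the libraries labelled KO, at 0.162 FPKM against 0.0755 in MII and 0.0554 against 0.0303 in 2cell libraries, where FPKM is fragments per kilobase of exon and M (mega) fragments. In MII oocytes every KO library lay above every Het library (limma adjusted p = 0.0144, 1.44-fold on the log2(FPKM + 0.1) scale, whose offset exceeds the Het mean). These values cover the whole gene, and the methods do not say which part was deleted, so they do not check the genotypes. By PCR the study reported *Cpeb3* mRNA to be absent from KO oocytes, and by immunoblot a reduced protein level. Directions below are between libraries labelled KO and Het. The 10 oocyte markers (such as *Zp3* and *Gdf9*) summed to 968 to 1650 FPKM in MII and 117 to 217 in 2cell libraries, and the 9 2cell markers (such as *Zscan4d*) to 38 to 62.2 and 451 to 857. Cumulus and granulosa cell markers, of which 8 of 12 were in the table, summed to at most 0.651 FPKM in any library. *Foxl2* was at 0 in all MII libraries and at up to 0.248 FPKM in 2cell libraries. *Cyp19a1* had 0.235 to 0.471 FPKM in MII libraries. The estimated depth was 17.2 to 23.6 M fragments.

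The 3′ ends of the mRNAs carry motifs of cytoplasmic polyadenylation, and they are shown here because they differ between the members. A CPE (TTTTAT or TTTTAAT in DNA letters, sense strand) within 100 bases before the polyadenylation signal (PAS, AATAAA or ATTAAA in the last 50 bases) was found in 6 of 10 members. The share among all 10228 tested genes with an annotated 3′UTR was 15.9%. The windows below lie in the 3′UTR exons (GENCODE vM21 transcripts, GRCm38, written in the direction of the mRNA), and capitals mark CPE and PAS motifs.
Mcm2, chr6:88883483-88883512, minus strand: tattTTTTAATagatttgAATAAAacctaa
Mcm4, chr16:15623961-15623990, minus strand: taatTTTTATagatccttagattattagtt
Mcm7, chr5:138164606-138164635, minus strand: acttTTTTATtctgccAATAAAgtgttttg
Mcm10, chr2:4989744-4989773, minus strand: aaccTTTTAATcctgccttttagtgaatta
Cdt1, chr8:122573080-122573109, plus strand: tggcTTTTAATAAAgtcatgtaagatttaa
Gmnn, chr13:24751905-24751934, minus strand: tccgTTTTATgtaaatagcattttcatttt

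In *Mcm7* the CPE began 12 bases before the PAS and in *Mcm2* 14 bases before it. In *Cdt1* the CPE shown overlaps an AATAAA and lies 25 bases before the last PAS. It lay farther away in *Mcm10* (32 bases), *Gmnn* (55 bases) and *Mcm4* (65 bases). *Gmnn* held 2 such elements in a 3′UTR of 224 bases, and *Mcm7* has the shortest 3′UTR of the members, at 136 bases. *Mcm5*, *Mcm6* and *Cdc6* had a PAS without a CPE in that window, and *Mcm3* had neither motif. Of all these genes, 79.2% had a PAS in the last 50 bases and 60.5% had a CPE anywhere in the 3′UTR. A motif match describes the letters only and is no sign of CPEB3 binding, and other 3′ ends may be used in these cells.

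The members were present at very unequal levels. In Het MII oocytes *Gmnn* had the highest level, 39.3 ± 5.91 FPKM (SD, n = 5), followed by *Mcm2* with 10.3 ± 1.54 and *Mcm4* with 8.23 ± 0.857. *Mcm7* (3.91 FPKM), *Cdt1* (3.7) and *Mcm10* (2.83) formed a middle range. *Mcm3* (1.56), *Cdc6* (1.12), *Mcm6* (1.01) and *Mcm5* (0.324) were lower. The level of *Mcm5* corresponds to an estimated 21.1 to 98.8 fragments per library over all 19 libraries, so its values rest on few fragments. *Mcm7* shares 7.3% of its exon bases with *Ap4m1* on the opposite strand, and stranded counting is not stated, so reads there cannot be told apart.

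**Figure D1:**
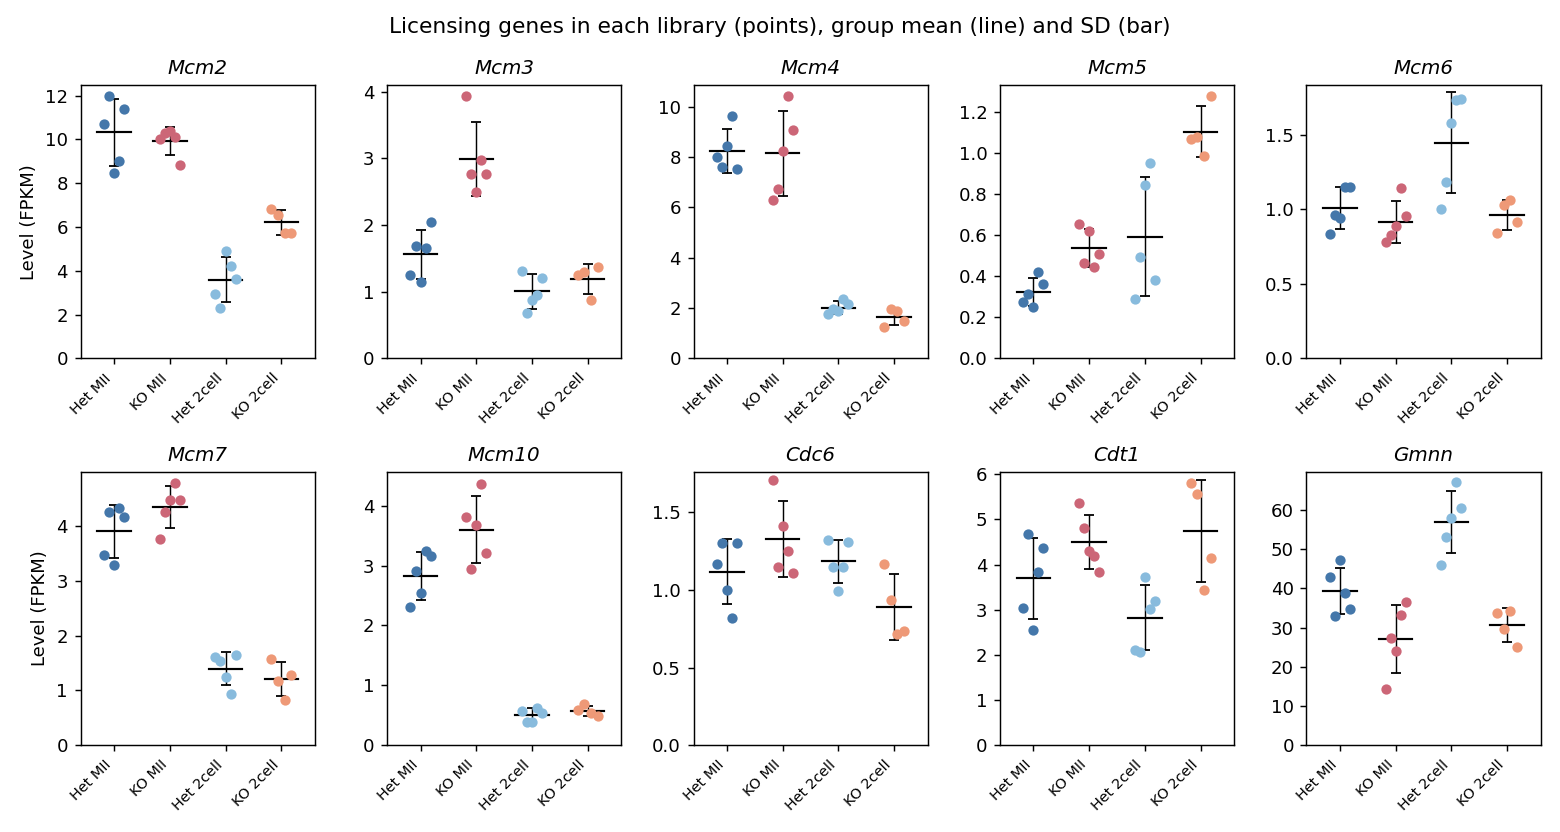
Level of each of the 10 licensing genes in FPKM (linear axes from 0, a scale of its own per gene) in the Het and KO MII oocyte and 2cell embryo libraries. Points are libraries, lines are group means and bars are SD; *Mcm2*, *Mcm4*, *Mcm7* and *Mcm10* drop from MII to 2cell in both genotypes, while *Gmnn* lies between 25.0 and 34.1 in the KO and 45.9 and 67.1 in the Het 2cell libraries.

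The order of the 4 groups differed between the genes. The highest group was Het MII for *Mcm2* and *Mcm4*, KO MII for *Mcm3*, *Mcm7*, *Mcm10* and *Cdc6*, Het 2cell for *Mcm6* and *Gmnn*, and KO 2cell for *Mcm5* and *Cdt1*. Neighbouring groups in this order mostly overlapped. They were separate in 8 cases. In *Mcm2* both KO MII and Het 2cell were apart from KO 2cell. In *Mcm5* Het and KO were apart in each stage, and in *Mcm3* they were apart in MII. The other 3 separations lay between MII and 2cell libraries, in *Mcm4*, *Mcm7* and *Mcm10*. For *Mcm6*, *Cdc6*, *Cdt1* and *Gmnn*, all neighbouring groups overlapped.

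The first comparison asks whether the stored licensing mRNAs differed between KO and Het MII oocytes. *Mcm3* was higher in KO oocytes, and it alone passed both thresholds, an adjusted p below 0.05 and a change over 1.5-fold (limma on log2(FPKM + 0.1), Benjamini-Hochberg over all 10515 tested genes). Thus 1 of 10 members was called higher, where 5.59% of all tested genes were. With limma, 0 of 10 were called lower, where 7.29% of all tested genes were, and 1 of them (*Gmnn*) was lower at an unadjusted p under 0.05. The median log2 difference of the members was 0.10 and that of all tested genes 0.01.

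*Mcm3*, a subunit of the ring, was measured at 1.25, 1.69, 1.15, 1.66 and 2.05 FPKM in Het MII libraries A to E and at 3.94, 2.77, 2.5, 2.98 and 2.76 in KO MII libraries A to E. Every KO library lay above every Het library. The log2 fold change was 0.81 (SE 0.142, 1.75-fold on this scale, limma adjusted p = 0.00431). *Mcm5*, which sits next to MCM3 in the ring, was measured at 0.275, 0.312, 0.25, 0.42 and 0.364 FPKM in Het and at 0.654, 0.463, 0.621, 0.444 and 0.506 FPKM in KO libraries. These ranges did not overlap either, with means of 0.324 FPKM in Het and 0.537 in KO. The log2 difference of 0.51 (SE 0.129, limma adjusted p = 0.02) stayed under 1.5-fold on the log2(FPKM + 0.1) scale, which understates changes of low genes. *Mcm5* was therefore not called. It was called with the values as deposited (0.59), with scaling to the same sum of FPKM (0.65) and with no fold threshold. The ranges of the genotypes were apart in 2 of 10 members, where they were apart in 16.3% of all tested genes.

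*Gmnn* was measured at 43.0, 32.9, 47.3, 38.7 and 34.8 FPKM in Het and at 14.4, 27.4, 24.1, 33.3 and 36.4 in KO MII libraries. KO libraries A to C lay under all Het libraries, while D and E lay within their range. The log2 difference was -0.69 (SE 0.262, limma adjusted p = 0.0842) and did not pass the threshold. Without KO library A it was -0.46, and in a limma fit of all 19 libraries it was -0.72 with an adjusted p of 0.0461, which passed.

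The other 7 members were not called in MII oocytes. *Mcm10* differed by 0.24 (95% confidence interval -0.03 to 0.51), *Cdt1* by 0.21 (-0.09 to 0.50) and *Cdc6* by 0.14 (-0.17 to 0.44) on the log2 scale. The remaining ring subunits were *Mcm7* at 0.06 (-0.17 to 0.29), *Mcm4* at -0.13 (-0.50 to 0.23), *Mcm2* at -0.14 (-0.35 to 0.06) and *Mcm6* at -0.22 (-0.51 to 0.08). All of these intervals include 0 and lie within a log2 difference of 0.51 of it. The oocyte markers summed to 1346 to 1650 FPKM in Het and 968 to 1274 in KO MII libraries, and the 2cell markers to 38 to 45.2 and 46.5 to 62.2, so both sums separated the genotypes. Their genes did not all do so in the same direction, since *Mos* had 157 to 266 FPKM in Het and 50.5 to 82.9 in KO, and *Padi6* 24.2 to 32.1 in Het and 34.4 to 54.1 in KO libraries. Their part in the result was not tested. Without further scaling of the FPKM, 57.1% of all calls were higher in KO, and with scaling to the same sum of FPKM 69.9%, against 43.4% here. *Mcm3* was called under each of these scalings, but not with a pseudocount of 1 FPKM, where its log2 fold change was 0.58.

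The second comparison asks the same in 2cell embryos of mothers of the same genotypes. *Gmnn* was lower and *Mcm2* and *Cdt1* were higher in KO embryos, though the calls of *Mcm2* and *Cdt1* were lost with GC correction. Of the 10 members, 2 were called higher, where 8.41% of all 14051 tested genes were, and 1 was called lower, where 9.85% were. The median log2 difference of the members was -0.06, and that of all tested genes was -0.01. The genotypes were apart in 3 of 10 members (*Mcm2*, *Mcm5* and *Gmnn*), where they were apart in 20% of all tested genes.

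*Gmnn* was measured at 45.9, 53.1, 58.0, 67.1 and 60.6 FPKM in Het 2cell libraries A to E and at 33.7, 29.7, 34.1 and 25.0 in KO 2cell libraries A to D. All 4 KO libraries lay below all 5 Het libraries. The mean was 57.0 ± 7.97 FPKM (SD, n = 5) in Het and 30.6 ± 4.22 (n = 4) in KO embryos, a log2 fold change of -0.95 (SE 0.13, 1.93-fold, limma adjusted p = 0.00206). It remained called without any 1 library (log2 fold change -1.01 to -0.84). It missed the threshold with the replicate letter as a block (-0.93, adjusted p = 0.0545), although the letters did not pair the libraries.

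*Mcm2*, the subunit that also holds histones H3 and H4 at the fork, was measured at 2.92, 2.31, 4.9, 4.24 and 3.62 FPKM in Het and at 6.81, 6.55, 5.74 and 5.73 in KO 2cell libraries. Again the groups did not overlap. The log2 fold change was 0.76 (SE 0.192, 1.69-fold, limma adjusted p = 0.0224). *Cdt1*, the loading factor that geminin binds, was measured at 2.11, 2.07, 3.72, 3.02 and 3.2 FPKM in Het and at 5.8, 5.56, 3.44 and 4.14 in KO libraries. KO library C lay within the Het range and the other 3 above it, and the log2 fold change was 0.68 (SE 0.209, 1.6-fold, limma adjusted p = 0.0467).

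The calls of *Mcm2* and *Cdt1* depended on the processing. With each library corrected for its trend with GC content, *Mcm2* came to 0.47 (adjusted p = 0.122) and *Cdt1* to 0.27 (adjusted p = 0.42), and only *Gmnn* was called among the members. *Cdt1* also lost its call with a pseudocount of 1 FPKM (0.54) and without a variance trend. Both genes lost it without a filter on low values and with the replicate letter as a block. The transcripts of *Cdt1* (58.8% GC) and *Mcm2* (55.5%) have the highest GC contents of the 10, and *Gmnn* has 49.8%. Without KO 2cell library A or B, *Mcm2* had an adjusted p of 0.059 or 0.0621, and *Cdt1* lost its call without 7 of the 9 libraries, all but Het C and KO C (adjusted p up to 0.123).

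*Mcm5* was measured at 0.287, 0.496, 0.844, 0.953 and 0.384 FPKM in Het and at 1.07, 1.08, 0.986 and 1.28 in KO 2cell libraries. All KO values lay above all Het values, but the Het libraries spread widely. The log2 difference of 0.85 (SE 0.284, limma adjusted p = 0.061) was not called. It was called with scaling to the same sum of FPKM (1.16), in 1 fit of all 19 libraries (0.86) and without Het library C (0.98) or D (1.04). *Mcm6* was measured at 1.0, 1.18, 1.58, 1.73 and 1.74 FPKM in Het and at 0.84, 1.03, 1.06 and 0.916 in KO libraries. Only Het library A lay within the KO range, and the difference of -0.57 (SE 0.179, limma adjusted p = 0.0487) stayed just under 1.5-fold (1.49) on the log2(FPKM + 0.1) scale. *Mcm6* was called with quantile scaling, with no fold threshold and without Het library A (-0.66).

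The other 5 members were not called. *Cdc6*, the ATPase that loads the ring, differed by -0.45 (95% confidence interval -0.85 to -0.05, limma adjusted p = 0.105). *Mcm4* differed by -0.34 (-0.73 to 0.04), *Mcm7* by -0.25 (-0.75 to 0.26), *Mcm10* by 0.13 (-0.30 to 0.55) and *Mcm3* by 0.19 (-0.30 to 0.69). The intervals of *Mcm3*, *Mcm4* and *Mcm7* include both 0 and a 1.5-fold change, so such a change cannot be told from none in these libraries. The summed markers of oocytes (149 to 217 FPKM in Het, 117 to 164 in KO) and of 2cell embryos (469 to 857 and 451 to 638) overlapped between genotypes, although single markers such as *Gdf9* (13.3 to 17.4 in Het and 20.7 to 25.2 in KO) did not. With scaling to the same sum of FPKM, 80.9% of all calls were higher in KO, against 46.0% here, and *Mcm2*, *Cdt1* and *Gmnn* kept their calls and directions.

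**Figure D2:**
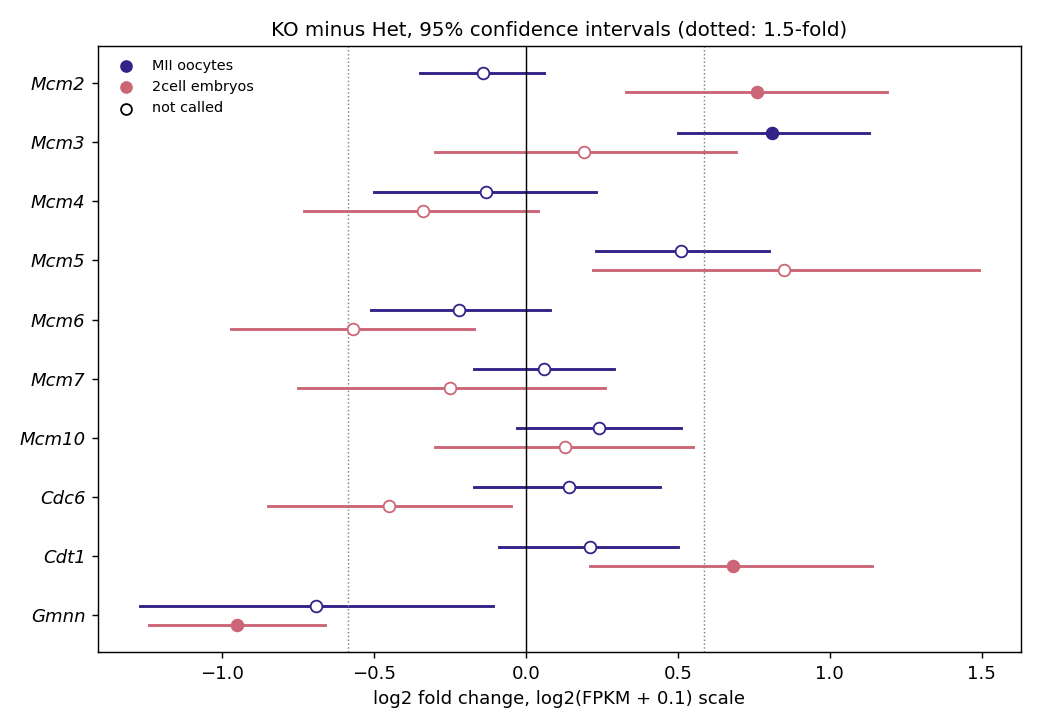
Log2 fold change, KO minus Het, of each licensing gene in MII oocytes and 2cell embryos on the log2(FPKM + 0.1) scale, with 95% confidence intervals from limma (bars) and dotted lines at 1.5-fold. Filled points were called: *Mcm3* in MII oocytes at 0.81, and *Mcm2* at 0.76, *Cdt1* at 0.68 and *Gmnn* at -0.95 in 2cell embryos.

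The next comparison follows the mRNAs from MII oocytes to 2cell embryos. FPKM is a share of each library, so it does not show an amount per cell. In Het embryos 6 of 10 members were lower than in Het oocytes, where 28.5% of all 15786 tested genes were, and limma called 0 members higher, where 38% of all genes were (0 also at an unadjusted p under 0.05). In KO embryos 6 of 10 were lower, where 27% were, and 1 was higher, where 38.2% were. The members' median log2 differences were -0.72 in Het and -0.75 in KO, and the medians of all tested genes were 0.20 and 0.21. Those medians ranged from -0.26 to 0.36 under other scalings, and the share of calls that were higher from 41.4% to 63.0% in Het and from 41.5% to 62.1% in KO, against 57.2% and 58.6% here.

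*Mcm10* had the largest drop on the log2(FPKM + 0.1) scale, from 2.83 ± 0.399 FPKM (SD, n = 5) to 0.504 ± 0.108 (n = 5) in Het and from 3.6 ± 0.556 (n = 5) to 0.577 ± 0.0846 (n = 4) in KO. Its log2 fold changes were -2.51 and -2.58 (limma adjusted p = 1.40e-11 and 2.60e-11). With a pseudocount of 1 FPKM *Mcm4* dropped more (-1.81 in Het and -1.88 in KO, against -1.49 and -1.61 for *Mcm10*). The Het values were 2.31, 2.91, 2.54, 3.24 and 3.16 in MII and 0.573, 0.387, 0.392, 0.624 and 0.545 in 2cell libraries, with no overlap. *Mcm4* fell by 2.22 in Het and 2.38 in KO on the log2 scale, from 7.52 to 9.62 FPKM in Het MII libraries to 1.75 to 2.36 in Het 2cell libraries. *Mcm7* fell by 1.68 in Het and 1.94 in KO, from 3.3 to 4.34 FPKM to 0.936 to 1.64 in Het.

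*Mcm2* fell by 1.77 in Het but by 0.82 in KO. *Mcm3* fell by 0.82 in Het and by 1.4 in KO. The drops of *Mcm2*, *Mcm4*, *Mcm7* and *Mcm10* were called in both genotypes under every alternative setting and without any 1 library. That of *Mcm3* was also called throughout in KO, and in Het except with a pseudocount of 1 FPKM (-0.49).

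The other 5 members behaved differently. *Cdt1* was lower in Het embryos (log2 fold change -0.62, limma adjusted p = 0.00356) and not called in KO (-0.10). The Het call was lost with the values as deposited (-0.38), a pseudocount of 1 FPKM (-0.48), a mean of at least 1 FPKM (-0.51) and a fit of Het libraries alone (-0.50), and without Het MII library B or E or Het 2cell library A or B (-0.58 to -0.52). With GC correction *Cdt1* was called lower in KO as well (-0.59, adjusted p = 0.0039). *Cdc6* was lower in KO embryos (-0.68, adjusted p = 7.92e-04) and not called in Het (-0.14). This KO call was lost with the values as deposited (-0.54), a pseudocount of 1 FPKM (-0.37) and a filter on a mean of 1 FPKM, and with scaling to the same sum of FPKM *Cdc6* was called lower in Het too (-0.63). *Mcm5* was higher in KO embryos (0.79, adjusted p = 0.00442), and not called under scaling to the same sum of FPKM (0.43), quantile scaling (0.37) or a pseudocount of 1 FPKM (0.38). In Het it differed by 0.42 (adjusted p = 0.0798), with a sign that turned under the first 2 of these, and it was called higher with the values as deposited (0.62) and without Het 2cell library A (0.61). *Mcm6* (0.23 in Het, -0.07 in KO) and *Gmnn* (0.29 and 0.08) were not called, and their signs also turned with the scaling. Calls of *Cdt1*, *Cdc6* and *Mcm5* in 1 genotype do not show a difference between genotypes, which is tested below.

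The blood genes *Hba-a1* and *Hba-a2*, the 2 of 6 blood markers in the table, summed to 0.0512 to 0.428 FPKM in MII and 46.2 to 146 FPKM in 2cell libraries. The sperm markers, of which 3 of 7 were in the table, reached at most 0.949 FPKM in MII and 1.31 FPKM in 2cell libraries. Their part in the stage differences was not tested.

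**Figure D3:**
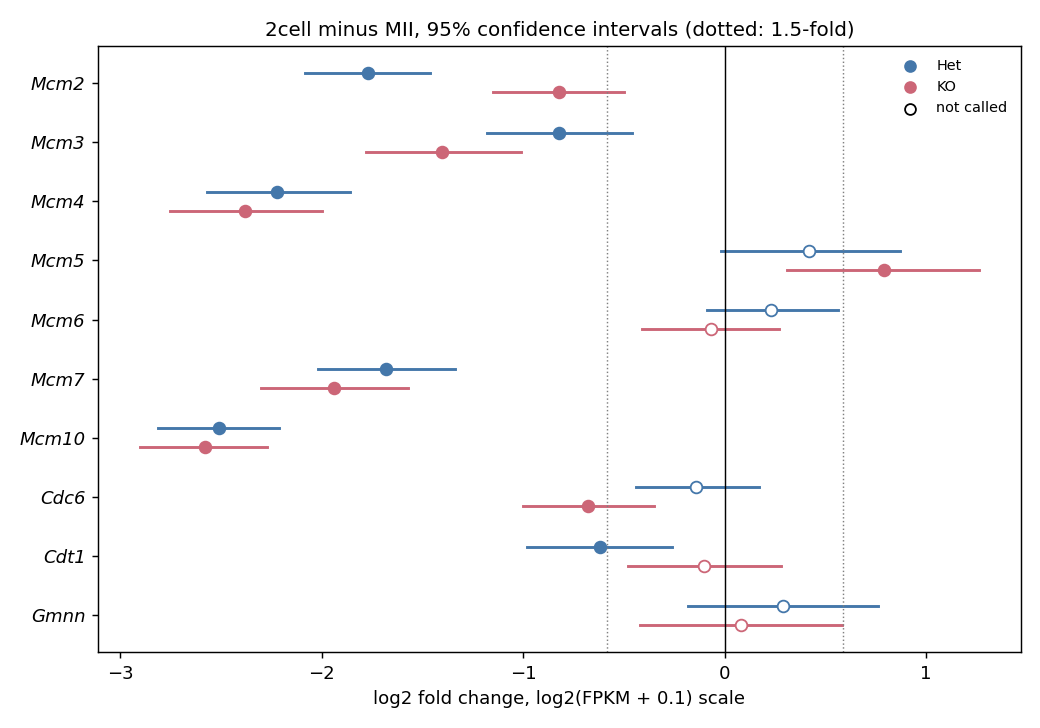
Log2 fold change, 2cell minus MII, of each licensing gene in Het and KO on the log2(FPKM + 0.1) scale, with 95% confidence intervals from limma (bars) and dotted lines at 1.5-fold. Filled points were called; *Mcm10* is lowest at -2.51 and -2.58, and *Mcm5* in KO is the one called higher, at 0.79.

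The interaction of stage and genotype tests whether the KO minus Het difference changed between MII and 2cell. *Mcm2* was the only member called, with a log2 interaction of 0.95 (SE 0.215, limma adjusted p = 0.0116). It was at -0.14 in MII oocytes and 0.76 in 2cell embryos. Thus 1 of 10 members was called with a higher difference in embryos, where 3.71% of all 15786 tested genes were. With limma 0 of 10 were called in the other direction, where 3.93% were, and 2 members (*Mcm3* and *Cdc6*) at an unadjusted p under 0.05. The *Mcm2* interaction was called under each of 10 alternative settings (0.79 to 1.06), GC correction included, and without any 1 of the 19 libraries (0.81 to 1.05). With scaling to the same sum of FPKM, 65.8% of all interaction calls were positive, against 48.6% here.

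The interactions of the other members did not pass. *Mcm3* had -0.58 (95% confidence interval -1.11 to -0.05, limma adjusted p = 0.175), *Cdt1* 0.52 (-0.01 to 1.04, adjusted p = 0.227) and *Cdc6* -0.54 (-0.99 to -0.09, adjusted p = 0.136). *Mcm5* had 0.36 (adjusted p = 0.527), *Mcm4* -0.16, *Mcm6* -0.31, *Mcm7* -0.26 and *Mcm10* -0.07. *Gmnn* had -0.21 (-0.90 to 0.48, adjusted p = 0.756), so the KO minus Het differences of -0.69 in MII and -0.95 in 2cell libraries were not told apart.

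The makeup of the helicase mRNAs shifted with the stage. The FPKM of *Mcm2* to *Mcm7* summed to 25.4 ± 1.82 (SD, n = 5) in Het MII, 26.9 ± 1.82 (n = 5) in KO MII, 10.1 ± 1.45 (n = 5) in Het 2cell and 12.3 ± 0.787 (n = 4) in KO 2cell libraries. In Het MII oocytes *Mcm2* gave 40.6% ± 4.47 and *Mcm4* 32.6% ± 4.42 of the sum, and *Mcm5* gave 1.27% ± 0.213. In Het embryos *Mcm4* gave 20.3% ± 2.66 and *Mcm6* 14.3% ± 1.88, against 3.98% ± 0.452 for *Mcm6* in Het oocytes. The highest of the 6 subunit mRNAs exceeded the lowest 33.2-fold on average in Het MII oocytes, 19.1-fold in KO MII oocytes, 6.92-fold in Het and 6.94-fold in KO 2cell embryos.

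In KO 2cell embryos *Mcm2* gave 47.4% to 53.2% of the sum, above the 28.4% to 43.3% of Het embryos. *Mcm6* gave 6.56% to 9.35% in KO and 11.3% to 16.2% in Het embryos. Both shares were apart between the genotypes. In MII oocytes *Mcm3* gave 9.19% to 15.5% in KO and 5.1% to 7.7% in Het libraries. These shares restate the levels above and were not tested.

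The ratio of *Gmnn* to *Cdt1* FPKM sets the inhibitor against its target at the level of mRNA. It was 21.8, 25.7, 15.6, 22.2 and 19 in Het 2cell libraries A to E and 5.81, 5.35, 9.9 and 6.05 in KO 2cell libraries A to D. The lowest Het embryo library lay above the highest KO embryo library. In MII oocytes it was 14.2, 7.02, 18.5, 10.1 and 7.95 in Het and 2.69, 5.71, 5.6, 7.94 and 9.46 in KO libraries, and the groups overlapped. This ratio was computed from values already compared and was not tested on its own, and the *Cdt1* difference within it was not called with GC correction (0.27).

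**Figure D4:**
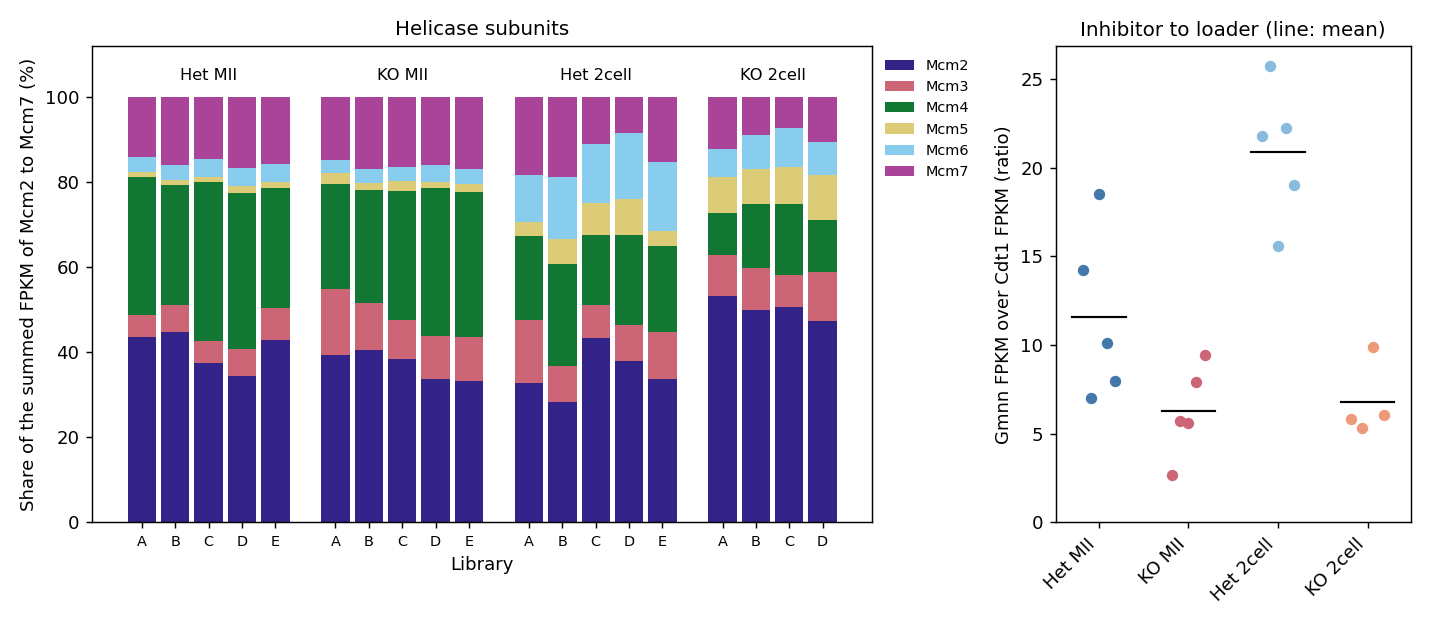
Left, share of *Mcm2* to *Mcm7* in their summed FPKM (%, bars stacked to 100 from 0) in each library, named by group and replicate letter; right, ratio of *Gmnn* to *Cdt1* FPKM per library (points) with the group mean (line). *Mcm2* has 47.4% to 53.2% of the sum in the KO 2cell libraries, whose *Gmnn* to *Cdt1* ratios of 5.35 to 9.9 lie below the 15.6 to 25.7 of the Het 2cell libraries.

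The promoters of most of these genes hold a feature that goes with their function, so the choice of genes was not independent of it. E2F factors, which drive genes of the G1 to S transition, bind sites of the type searched here (TTTCCCGC, TTTCGCGC, TTTGCCGC or TTTGGCGC on either strand). RefSeq promoters (GRCm38.p6, 250 bases before to 50 after the start) matched 8 members, and *Mcm4* and *Gmnn* were not in the table used. A site was found for 6 of these 8 (*Mcm3*, *Mcm5*, *Mcm6*, *Mcm7*, *Cdc6* and *Cdt1*), which is 6 of their 9 promoters, since *Mcm7* has a second one without a site. Of all 32851 promoters 2.3% held a site, and that table includes promoters of noncoding genes. None was found for *Mcm2* and *Mcm10*. Windows of 4 members whose levels differed between genotypes in at least 1 stage or lay just under the threshold are given, with capitals on the E2F letters, which overlap on both strands in *Mcm5* and *Mcm6*.
Mcm3, chr1:20820273-20820302, minus strand: acttccgtgGCGGGAAAacttgggaagttt
Mcm5, chr8:75109347-75109376, plus strand: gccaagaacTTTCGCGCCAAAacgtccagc
Mcm6, chr1:128359795-128359824, minus strand: gcgtatgctTTTGGCGCGAAAagtgcgtgc
Cdt1, chr8:122568035-122568064, plus strand: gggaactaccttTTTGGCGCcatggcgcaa

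*Mcm3* was called higher in KO oocytes and *Cdt1* in KO embryos, while *Mcm5* and *Mcm6* were not called in either stage (log2 differences of 0.51 and 0.85 for *Mcm5* and -0.22 and -0.57 for *Mcm6*). *Mcm7* (0.06 and -0.25) and *Cdc6* (0.14 and -0.45) also have a site, were not called in either stage, and their windows are not shown. *Mcm2*, called higher in KO embryos, has none of these letters in its window. Any link between sites and genotype differences was not tested. A match is not a bound site, and no match says only that these letters are missing there.

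The partners of the licensing genes were followed in 7 lists with 83 genes. In MII oocytes 3 of 74 tested partners were called higher in KO and 4 lower, where 5.59% and 7.29% of all tested genes were. In 2cell embryos 8 of 70 were called higher and 7 lower, where 8.41% and 9.85% of all tested genes were, so the counts lay near those of all genes. The median log2 differences were -0.02 in MII and -0.07 in 2cell libraries, beside 0.01 and -0.01 for all tested genes. Fewer partners were called with a pseudocount of 1 FPKM, 2 in MII and 6 in 2cell libraries, and 9 in 2cell libraries with GC correction. Most of the partner calls between genotypes named below were therefore lost with that pseudocount.

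Among the genes for turnover of licensing factors, *Fzr1* and *Ddb1* were called higher in KO in both stages. *Fzr1* codes for CDH1, which directs the anaphase-promoting complex to geminin among other targets. Its level was 0.293 ± 0.04 FPKM in Het and 0.578 ± 0.123 in KO MII oocytes, and 0.361 ± 0.0545 in Het and 1.44 ± 0.293 in KO embryos (SD, n = 5, 5, 5 and 4). Its log2 fold changes were 0.69 and 1.68, and its interaction of 1.0 was called (limma adjusted p = 0.00559). *Ddb1*, the adaptor of the CUL4 ligase that marks CDT1, was higher by 0.68 in MII oocytes and 1.34 in embryos. *Cul4b* (-0.60), the scaffold of that ligase, and *Dtl* (-0.60), its receptor for CDT1, were lower in KO embryos, each only 1.52-fold. The genes of 1 ligase were thus called in both directions, with *Cul4b* and *Dtl* just over the threshold.

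Of the 8 genes for origin recognition, *Orc4* was lower in KO in both stages. It had 0.818 to 1.24 FPKM in Het and 0.417 to 0.759 in KO MII libraries, and 0.365 to 0.895 and 0.272 to 0.34 in 2cell libraries, without overlap in either stage (log2 fold changes -0.82 and -0.87). *Orc6* was lower in KO embryos (-0.69), at 24.5 ± 2.72 FPKM against 38 ± 4.55. Of the 14 genes for helicase activation, *Cdc45*, a part of the active helicase, was the only one called between genotypes. It was lower in KO embryos (-0.94), at 0.772 ± 0.151 FPKM (n = 4) against 1.52 ± 0.298 (n = 5).

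Among the S phase cyclins, kinases and E2F factors, *E2f1* was higher in KO oocytes (0.89) and embryos (0.80) and *E2f2* in KO embryos (1.52), while *Tfdp1*, which codes for a partner of E2F proteins, was lower in KO oocytes (-0.66). Of the 27 genes of the replication fork, the clamp loader subunit *Rfc4* (-1.09) and the primase subunit *Prim2* (-0.60) were lower in KO oocytes. In KO embryos 4 were higher, *Rpa3* (1.17) and *Pold3* (0.80) among them, and *Rpa2* (-0.66) and *Tipin* (-0.61) were lower. Thus *Rpa2* and *Rpa3*, which code for subunits of 1 complex that coats single-stranded DNA, were called in opposite directions.

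From MII to 2cell, 46 of 75 tested partners were lower and 9 higher in Het, and 42 lower and 10 higher in KO. Of all tested genes, 28.5% were lower and 38% higher in Het, and 27% and 38.2% in KO. The partners had median log2 differences of -0.85 and -0.71. All 4 tested genes of the list of other MCM proteins and MCM partners were lower in both genotypes, *Mcm3ap* the most (-2.44 in Het and -2.87 in KO). Of 24 fork genes, 19 were lower in Het and 16 in KO, with *Timeless* at -3.87 and -3.60. *Rpa2* (3.74 and 3.02) and *Fen1* (0.86 and 1.34) were called higher. *Ccne1*, the cyclin E gene, rose by 3.77 in Het and 4.69 in KO, and its interaction of 0.92 was called (limma adjusted p = 0.019). Of the 75 partners, 6 had a called positive interaction and 2 a negative one (*Cdk1* at -0.75 and *Prim1* at -0.72), where 3.71% and 3.93% of all tested genes did.

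The genes most like the mean log2 level of *Mcm2* to *Mcm7* across the 19 libraries were *Champ1* (Pearson's r = 0.989), *Sf3a1* (0.988), *Mre11a* (0.987), *Cct2* (0.986) and *Gfm1* (0.984), and 515 genes had an r above 0.95. These r are descriptions, since the 19 libraries fall into 2 stages and the members of a stage share its level. Of the members, *Mcm10* had 0.981, although it was not part of the mean. *Cdt1* (0.618) and *Cdc6* (0.538) were less like it, and *Gmnn* (-0.255), *Mcm6* (-0.137) and *Mcm5* (-0.365) ran against it even where, as with *Mcm5* and *Mcm6*, they were part of it.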

How the data were processed

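Libraries were made with SMART-seq v4, which primes cDNA at poly(A) tails, so tail length could affect a measured level. Per the labels and methods, the authors trimmed reads with Trim Galore 0.4.1, aligned them with HISAT2 2.0.5 to GRCm38, and SeqMonk gave the FPKM that were deposited. The table is named as raw counts, but its values are not whole, and they were read as FPKM. The methods give quadruplicates and another sequencer than the labels; all 19 labelled libraries were used, and 0 columns of values were unused. Depth was estimated from the steps of low values of 9238 genes with 1 transcript; a median of 39.2% fell no more than 0.05 from whole fragments (10% by chance), so it is approximate.

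FPKM were scaled by a trimmed mean of log ratios (30% of ratios and 5% of levels trimmed per side) and tested as log2(FPKM + 0.1) with limma 3.58.1 in R 4.3.3, using a variance trend. Genes needed 0.1 FPKM in 5 MII or 4 other libraries. Genotypes were compared within a stage, and stages and the interaction in 1 fit of all 19 libraries. Fold changes on this scale understate those of low genes. The scripts were tested on simulated data. Only genes of a higher level than several members were changed there, and by more than the genotype differences called here. That test therefore does not cover low genes or small changes. Sequences came from GENCODE vM21 and RefSeq, and 99.0% of the table's genes were matched. Python 3.11.15, numpy 2.4.6, pandas 2.3.3 and matplotlib 3.10.9 were used.

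All 10 members were named in every comparison. From each list of partners, up to 2 called genes per direction and comparison with the largest fold were eligible, and *Cpeb3* and the 5 most correlated genes were named. Members and lists were chosen with earlier results of these data known. The alternatives were other scalings, a pseudocount of 1, other filters, GC correction, no variance trend, the replicate block, other sets of libraries in the fit, no fold threshold and each library left out.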

Additional observations from a re-analysis of the deposited data

Results flagged for a closer look

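Within the groups of 4 or 5 libraries, 40 sets of values of a member were examined for a library far from the rest. In 1 of them, *Mcm2* in KO MII oocytes, the lowest library (E, at 8.81 FPKM) was separated from the next by 0.735 of the whole range, above Dixon's critical value of 0.71 for 5 samples. The other 4 libraries lay between 10.0 and 10.4 FPKM. Chance flags about 1 in 20 groups.

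The KO minus Het difference of *Mcm2* differed between MII oocytes and 2cell embryos, with a log2 interaction of 0.95 (limma adjusted p = 0.0116) that was called without any 1 of the 19 libraries.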

How the results depend on the processing

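In MII oocytes 1 member was called between genotypes (*Mcm3*). It was 0 with a pseudocount of 1 FPKM, and 2 with the values as deposited, scaling to the same sum of FPKM, 1 fit of all 19 libraries or no fold threshold. In 2cell embryos 3 were called (*Mcm2*, *Cdt1* and *Gmnn*). It was 1 without a filter on low values or with GC correction, *Gmnn* in both, and 1 to 4 without each library in turn; *Gmnn* was among them each time, and it was the only one without KO 2cell library A or B. Pathway genes called with a pseudocount of 1 FPKM were 2 instead of 7 in MII, 6 instead of 15 in 2cell, 29 instead of 55 and 32 instead of 52 between stages in Het and KO, and 4 instead of 8 in the interaction; with GC correction 9 were called in 2cell. With the replicate block 0 members were called in 2cell, 1 in MII, and the block changed no other call of a member. Libraries with the same letter did not deviate together (r between -0.175 and 0.12, and 2 of 9 letters correlated best with their own letter), so the block was not taken to reflect a design. Over all genes 1355 calls were made in MII and 2565 in 2cell. The totals were 824 and 414 with the block, 481 and 1178 with a pseudocount of 1, 755 and 1427 with a mean of at least 1 FPKM and fewer genes tested, and 2247 in MII with no fold threshold. Signs turned only in values that were not called. Between genotypes these were *Mcm2* (0.03) and *Mcm4* (0.04) in MII and *Mcm7* (0.08) in 2cell with the same sum of FPKM, and *Cdt1* (-0.03) and *Mcm7* (-0.09) in MII with GC correction. Between stages in Het they were *Cdc6* (0.09) as deposited, *Gmnn* (-0.25), *Mcm5* (-0.01) and *Mcm6* (-0.26) with the same sum, and *Mcm5* (-0.02) and *Mcm6* (-0.07) with quantile scaling. In KO they were *Cdt1* (0.05) and *Mcm6* (0.07) as deposited, *Gmnn* with the same sum (-0.34) and quantile scaling (-0.13), *Cdt1* (0.03) and *Mcm6* (0.05) with a mean of at least 1 FPKM, and *Mcm6* (0.02) with GC correction. Without each library in turn, the KO stage difference ranged from -0.20 to 0.04 for *Cdt1*, -0.21 to 0.22 for *Gmnn* and -0.20 to 0.01 for *Mcm6*, and the interaction of *Mcm10* from -0.15 to 0.02, with 0.00 in between. The causes were not tested. At the estimated depth *Mcm5* rests on fewer than 100 fragments per library, and so do *Mcm3* and *Mcm10* in every 2cell library.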
